A study of Mus musculus with 6 samples.

Results

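The genes described here encode the ephrins, semaphorins, Slits and netrins, which are the main families of axon guidance ligands, together with their Eph, plexin, neuropilin, Robo, Dcc, neogenin and Unc5 receptors. They were chosen by gene name among the protein-coding genes of the expression table, and the rule found 70 of the 26437 genes listed. The rule uses no expression values, but earlier results of these data were known when it was set. The 70 genes have 69 names, since *Ntn5* is listed under 2 identifiers, and they fall into 12 families of ligands or receptors. *Unc5cl* was taken in by its name, although its product is an intracellular protein related to the Unc5 receptors and not a netrin receptor. Eye tissue of mouse embryos was compared by RNA-seq between wild-type (WT) embryos and *Rdh10* KO embryos at E10, embryonic day 10. *Rdh10* encodes the retinol dehydrogenase that makes retinaldehyde for retinoic acid (RA) synthesis, and the study asked which genes depend on RA in the developing eye. The *Rdh10* KO embryos were homozygous for the knockout allele (*Rdh10*-/-), came from matings of heterozygous parents and were, like the WT embryos, outbred, from a mixed background of C57BL/6 and Black Swiss. Each group had 3 libraries, and each library came from a separate pool of 3 embryos, so that 9 embryos stood behind each group. The dissected frontal head held the optic vesicles, facial tissue and some adjacent forebrain.

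Guidance ligands bind receptors on growing axons and migrating cells and attract or repel them. Ephrins stay attached to the membrane and act on contact, with A-type ephrins held by a lipid anchor and B-type ephrins spanning the membrane. Class 3 semaphorins, Slits and netrins are secreted, and most other semaphorins span the membrane. In the eye, graded Eph and ephrin levels help to order retinal axons, Slits and semaphorins steer them towards the optic chiasm and the brain, and netrin-1 marks the optic disc and the optic fissure. The same families guide cranial neural crest cells and blood vessels, so their RNA in a dissected head comes from several cell types. In such mixed tissue, fewer cells of a type and less RNA per cell cannot be told apart.

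Of the 69 names, 59 matched at least 1 RefSeq promoter on GRCm38.p6, giving 75 windows that run from 250 bases before to 50 bases after a start site. The part of the window before the annotated start is printed for 4 genes chosen after their values were seen, which are the secreted semaphorin gene with the largest rise (*Sema3g*), the neuropilin gene with the lowest adjusted p (*Nrp2*), the plexin gene with the largest rise (*Plxnd1*) and the ephrin gene with the largest fall (*Efna4*). Letters in capitals mark the hexamer AGGTCA, its related form GGGTCA, the form AGTTCA or the form GGTTCA on either strand, which are half-sites of the kind bound by RA receptors.
*Sema3g*, chr14:31217623-31217859, plus strand: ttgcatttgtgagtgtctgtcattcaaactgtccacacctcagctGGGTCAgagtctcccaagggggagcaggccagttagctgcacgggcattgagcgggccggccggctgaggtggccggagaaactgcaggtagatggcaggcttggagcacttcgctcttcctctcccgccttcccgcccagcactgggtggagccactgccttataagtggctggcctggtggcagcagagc
*Nrp2*, chr1:62703067-62703284, plus strand: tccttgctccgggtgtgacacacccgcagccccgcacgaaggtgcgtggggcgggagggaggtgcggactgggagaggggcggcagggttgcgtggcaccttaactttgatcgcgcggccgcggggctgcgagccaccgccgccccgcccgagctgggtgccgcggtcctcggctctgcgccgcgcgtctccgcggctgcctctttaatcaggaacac
*Plxnd1*, chr6:115995006-115995255, minus strand: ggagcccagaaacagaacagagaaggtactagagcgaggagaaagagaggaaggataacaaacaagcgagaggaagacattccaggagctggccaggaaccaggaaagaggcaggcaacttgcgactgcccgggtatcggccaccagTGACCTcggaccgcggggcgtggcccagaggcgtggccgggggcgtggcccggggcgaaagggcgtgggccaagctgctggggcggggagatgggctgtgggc
*Efna4*, chr3:89338029-89338278, minus strand: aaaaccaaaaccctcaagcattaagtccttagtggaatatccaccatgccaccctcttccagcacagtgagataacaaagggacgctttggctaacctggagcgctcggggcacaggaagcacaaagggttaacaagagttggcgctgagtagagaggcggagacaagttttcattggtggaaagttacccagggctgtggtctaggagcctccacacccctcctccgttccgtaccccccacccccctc

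A hexamer was present in the *Sema3g* and *Plxnd1* stretches and in neither of the other 2. Over whole windows, 22 of the 75 windows of guidance genes (29.3%) held such a hexamer, against 43.7% of all 32851 RefSeq windows. Direct repeats of these hexamers with spacers of 1, 2 or 5 bases (DR1, DR2 and DR5), the arrangement that RA receptors bind, were found in 0 of the 75 windows and in 0.222%, 0.268% and 0.0974% of all windows. Guidance gene windows were richer in GC, with a median of 64.3% against 52.7% over all windows. These matches describe letters near start sites only, and RA response elements often lie further away.

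The 6 libraries held 16392777 to 27101025 reads on genes. Values are normalized counts (a gene's reads over the size factor of its library), and 3 reads, used as the limit of detection, came to 2.15 to 3.53 normalized counts. Levels of different genes are compared as FPKM, computed here from the reads and exon lengths. The targeted gene, *Rdh10*, had 399, 342 and 381 normalized counts in WT and 183, 142 and 181 in *Rdh10* KO, whose mean was 45.1% of the WT mean, so its RNA was reduced but still present. *Rdh10* KO libraries varied more among themselves than WT libraries, with a median SD of log2 values of 0.153 against 0.107 over 15272 genes. All 8 optic vesicle markers listed were detected in every library, and their summed level was 41.2 to 43.3 FPKM in WT. In *Rdh10* KO the sum was 26.3 FPKM in replicate 1 and 41.8 and 43.8 FPKM in replicates 2 and 3. *Rdh10* KO replicate 1 also had the lowest sum of 8 blood markers, 3819 FPKM against 7454 to 11639 FPKM in the other 5 libraries. Without that library, 23 guidance genes rose and 1 fell, against 9.42% and 9.11% of all genes. With all libraries, 24 rose and 3 fell.

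Guidance genes were more often higher than lower in *Rdh10* KO eye tissue. Of the 68 that were expressed enough to be tested (mean above 0.5 normalized counts), 24 rose, 3 fell and 41 did not pass the test (limma, adjusted p under 0.05 over all 22921 genes tested). Over all genes tested, 10.3% rose and 9.12% fell. Most guidance genes were well expressed, with 65 of the 68 above a mean of 10 normalized counts, and among all genes above that mean 15.0% rose and 13.4% fell. The median log2 fold change was 0.26 over the 68 guidance genes and 0.0036 over all genes tested. Every *Rdh10* KO value lay above every WT value for 35 guidance genes and below for 8, where the shares over all genes tested were 17.6% and 17.0%. Rises were mostly modest, and only *Sema3g* and *Dcc* passed the study's log2 limit of 0.85 as well, against 2.41% of all genes for rises and 0.886% for falls. Ligand genes and receptor genes rose in like numbers, with 12 of 33 tested ligand genes and 12 of 35 receptor genes. When the variance of each gene was not drawn towards a trend with its level, no guidance gene passed (0 rose and 0 fell by adjusted p, 25 and 5 at an unadjusted p under 0.05, lowest adjusted p 0.0569), where 1.95% of all genes rose and 0.859% fell by adjusted p. At an unadjusted p under 0.05 in the main test, 36 guidance genes were higher and 6 lower, against 15.8% and 14.9% of all genes. The edgeR quasi-likelihood test on the recovered reads gave 34 and 3 (11.4% and 9.55% of all genes), and DESeq2 gave 31 and 3 (10.7% and 9.78%). Both count tools also called *Epha2*, *Epha4*, *Ephb2*, *Efna3*, *Sema3a*, *Nrp1* and *Plxnc1*, which had missed the threshold in limma, and edgeR further called *Slit1*, *Efnb3* and *Ntn1*. In the promoter windows, a half-site hexamer was found in 5 of 27 windows of the genes that rose and in 0 of 3 windows of those that fell. The shares were 29.3% of all guidance gene windows and 43.7% of all RefSeq windows. Some genes have several windows, and 3 windows are too few to compare.

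**Figure D1:**
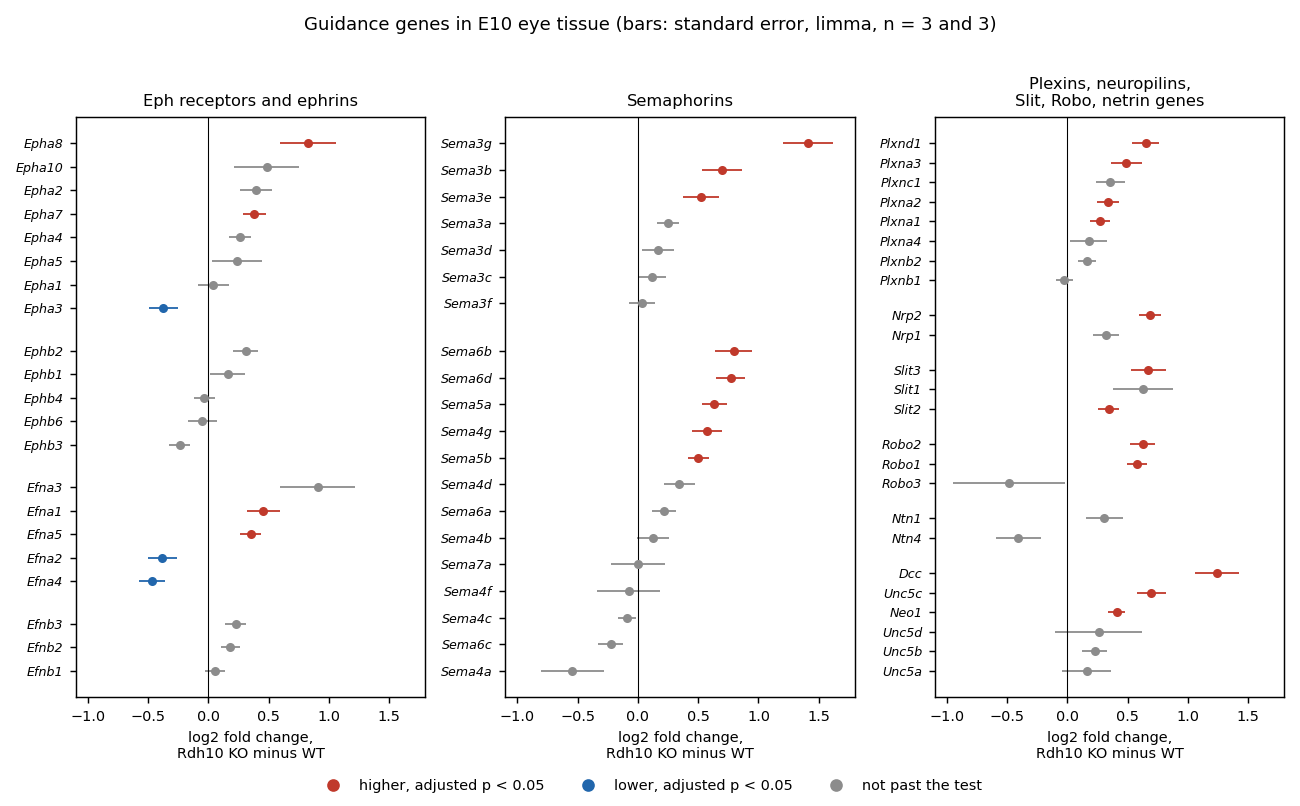
Log2 fold change (*Rdh10* KO minus WT) of each guidance gene with its limma standard error, 3 libraries a group, in 3 panels arranged by family. Points of genes that rose (red) outnumber those that fell (blue), which are *Epha3*, *Efna2* and *Efna4*; genes near the detection limit are left out.

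Gene length moved with these changes. Among all genes with a mean above 10 normalized counts, 4.80% of those with under 2 kb of exon rose, and the share went up through 9.22%, 13.8%, 19.0% and 29.7% to 43.1% of those above 12 kb. The median log2 fold change went from -0.15 in the shortest to 0.27 in the longest genes. This gap between longest and shortest genes, measured against the WT mean, was 0.36, 0.40 and 0.46 in the 3 *Rdh10* KO libraries and -0.02 to 0.03 in the WT libraries. Guidance genes are long. The genes that rose had a median exon length of 8885 bp, those that fell 2131 bp, and all genes 4247 bp. Within the length classes the median of the guidance genes stayed above that of all genes, at 0.14 against -0.0064 for 4 to 6 kb, 0.27 against 0.059 for 6 to 8 kb, 0.32 against 0.15 for 8 to 12 kb and 0.34 against 0.27 above 12 kb. With the trend on length and GC content taken out of each library, 18 guidance genes rose and 5 fell, against 8.63% and 13.0% of all genes, and their median was 0.076 against -0.032. The part of length in the single changes was otherwise not tested.

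**Figure D2:**
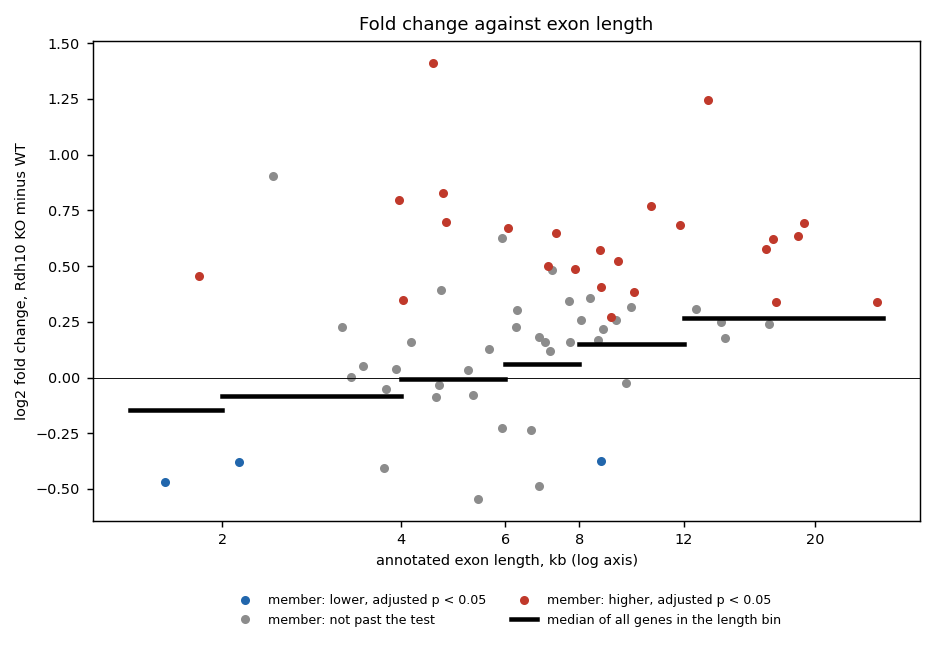
Log2 fold change (*Rdh10* KO minus WT) of each guidance gene with a mean above 10 normalized counts against its annotated exon length in kb (log axis), with black bars at the median of all genes in 6 length classes. The bars climb from -0.15 to 0.27, and most guidance genes above 6 kb lie above the bar of their class.

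The levels of the families differed widely. In WT tissue the highest member of each family, per exon length, was *Epha7* among the EphA receptors (7.40 FPKM), *Ephb4* among the EphB receptors (24.9), *Efna2* (33.7) and *Efnb1* (29.2) among the ephrins, *Sema3f* (9.12) and *Sema4c* (13.7) among the semaphorins, *Plxnb2* among the plexins (29.4), *Nrp2* (5.11), *Slit1* (3.33), *Robo1* (3.81), *Ntn1* (14.3) and *Neo1* (13.5). At the other end, *Epha6*, *Plxnb3*, *Unc5cl* and both *Ntn5* entries were near or under the detection limit. The leading ephrin, EphB and plexin genes thus gave far more RNA per length than any Slit, Robo or neuropilin gene. The 3 Slit genes were close to each other, at 3.03 to 3.33 FPKM.

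**Figure D3:**
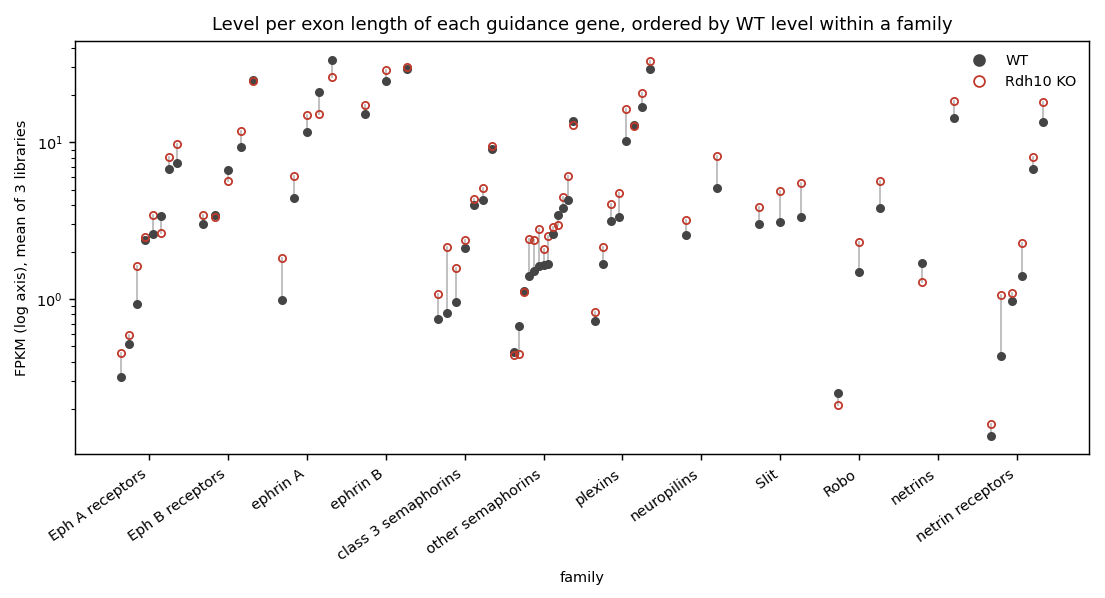
Mean FPKM (log axis, 3 libraries a group) of each guidance gene in WT (filled) and *Rdh10* KO (open), by family and ordered by WT level. The highest levels, near 30 FPKM, are those of *Efna2*, *Plxnb2* and *Efnb1*; most open circles lie above their filled partners, and genes near the detection limit are left out.

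Of the 22 Eph and ephrin genes together, 4 rose and 3 fell. These counts were near the shares of all genes above a mean of 10 normalized counts, where 15.0% rose and 13.4% fell. Among the 9 EphA receptor genes, which encode receptor tyrosine kinases that bind mainly A-type ephrins, 2 rose and 1 fell. *Epha7*, the most abundant of them, was at 1366, 1443 and 1485 normalized counts in WT and 1601, 2159 and 1875 in *Rdh10* KO, a log2 fold change of 0.38 (SE 0.097, limma adjusted p = 0.013). Every *Rdh10* KO pool was above every WT pool. *Epha8* was lower in level and had 112, 57.9 and 90.3 counts in WT and 169, 121 and 160.0 in *Rdh10* KO (log2 fold change 0.83, SE 0.23, limma adjusted p = 0.0215). Its groups did not overlap, although WT replicate 1 came close to the lowest *Rdh10* KO value. *Epha3* went the other way, with 544, 589.8 and 587 in WT and 373, 450.2 and 516 in *Rdh10* KO (log2 fold change -0.37, SE 0.12, limma adjusted p = 0.0372). As a description within each library, the log2 ratio of *Epha7* to *Epha3* was 1.32 ± 0.025 in WT and 2.07 ± 0.20 in *Rdh10* KO (SD, n = 3). *Epha2* (log2 fold change 0.39, limma adjusted p = 0.0532) and *Epha4* (0.26, 0.059) had groups that did not overlap but missed the threshold, and *Epha1*, *Epha5* and *Epha10* had fold changes between 0.040 and 0.48 with overlapping groups. *Epha6* had 0 to 4.45 normalized counts, too few for a fold change. Each of the 3 calls was lost in some fit that left out 1 library, where the adjusted p reached 0.0762 for *Epha7* (without WT replicate 1 or 2 or *Rdh10* KO replicate 2), 0.111 for *Epha8* (without WT replicate 2 or 3 or *Rdh10* KO replicate 1 or 3) and 0.147 for *Epha3* (lost without any 1 library other than *Rdh10* KO replicate 3). The call of *Epha3* also ended with a pseudocount of 0.01 (limma adjusted p = 0.0505). With the length and GC trend removed, *Epha7* was at a log2 fold change of 0.23 (limma adjusted p = 0.0621) and *Epha3* at -0.50 (0.00585).

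Of the 5 EphB receptor genes, which encode receptors for B-type ephrins, 0 passed the limma test, 1 was higher and 1 lower at an unadjusted p under 0.05, and edgeR and DESeq2 each called 1 (*Ephb2*). *Ephb4*, known for its role in veins, was their most abundant member, with 2452, 2265 and 2062 counts in WT and 2316, 2002 and 2308 in *Rdh10* KO. The groups overlapped fully, with a log2 fold change of -0.032 (SE 0.084, limma adjusted p = 0.842). *Ephb2* was above WT in every *Rdh10* KO pool (log2 fold change 0.31, limma adjusted p = 0.055) and *Ephb3* below in every pool (-0.24, 0.0724), but neither passed. *Ephb1* (0.16) and *Ephb6*, whose product lacks kinase activity, (-0.051) had overlapping groups. With length and GC trend removed, *Ephb3* passed as lower, at -0.35 (limma adjusted p = 0.00772).

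Of the 5 ephrin-A genes, 2 rose and 2 fell, beside 15.0% and 13.4% of all genes above a mean of 10. *Efna5*, an ephrin graded across the retina and its targets in later development, had 957, 920.3 and 880.1 counts in WT and 1093, 1281 and 1145 in *Rdh10* KO (log2 fold change 0.35, SE 0.084, limma adjusted p = 0.00966). *Efna1*, also expressed in blood vessels, had 150.4, 162 and 165 in WT and 207, 249 and 202 in *Rdh10* KO (log2 fold change 0.46, SE 0.14, limma adjusted p = 0.031). Neither gene had overlapping groups. *Efna4* fell, from 712, 691 and 564 in WT to 469, 450.2 and 498 in *Rdh10* KO (log2 fold change -0.47, SE 0.11, limma adjusted p = 0.0067), and its groups were also apart. *Efna2*, the guidance gene with the highest FPKM in WT, had 1483, 1536 and 1198 in WT and 1152, 1220.4 and 879 in *Rdh10* KO (log2 fold change -0.38, SE 0.12, limma adjusted p = 0.0414). It passed the test as lower even though *Rdh10* KO replicate 2 was above WT replicate 3. *Efna3* had a large but unsettled difference, 50.1, 63.4 and 28.2 counts in WT and 72.3, 68.3 and 120.0 in *Rdh10* KO, with a log2 fold change of 0.91 (SE 0.31) and a limma adjusted p of 0.0561.

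*Efna1*, *Efna3* and *Efna4* are neighbours on the minus strand of chromosome 3, with *Efna1* at chr3:89271733-89281142, *Efna3* at chr3:89313899-89322965 and *Efna4* at chr3:89333390-89338028. The gaps between them are 32.8 kb and 10.4 kb. So the gene that fell lay 10.4 kb from one with a positive fold change. As a description, the log2 ratio of *Efna1* to *Efna4* was -2.04 ± 0.24 in WT and -1.11 ± 0.23 in *Rdh10* KO (SD, n = 3). *Efna3* and *Efna4* share 14.1% and 10.5% of their exon length with antisense genes, and how the reads were assigned by strand is not given in the sources used here. These 4 calls were lost in fits without some single library, where the adjusted p reached 0.0538 for *Efna5* (lost without WT replicate 2 or 3), 0.118 for *Efna1* (without any WT replicate or *Rdh10* KO replicate 2), 0.0565 for *Efna4* (without WT replicate 1 or 2) and 0.205 for *Efna2* (without WT replicate 1 or 2 or *Rdh10* KO replicate 1 or 3). The call of *Efna1* also ended after quantile normalization (limma adjusted p = 0.0819) and that of *Efna2* with a pseudocount of 0.01 (0.0701). Taking out the length and GC trend ended the call of *Efna2* (log2 fold change -0.35, limma adjusted p = 0.0718) and brought *Efna3* past the threshold (0.94, 0.0335).

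Of the 3 ephrin-B genes, 0 passed the limma test, 2 were higher at an unadjusted p under 0.05, edgeR called 1 (*Efnb3*) and DESeq2 called 0. *Efnb1*, an X-linked gene needed for facial midline development, had 2058, 2051 and 1801 counts in WT and 1899.6, 1999 and 2229.6 in *Rdh10* KO, with a log2 fold change of 0.052 (SE 0.083, limma adjusted p = 0.724). *Efnb2*, which marks arteries, and *Efnb3* were above WT in every *Rdh10* KO pool, at log2 fold changes of 0.18 and 0.23 with limma adjusted p of 0.125 and 0.0799.

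The class 3 semaphorins are secreted, and most bind a neuropilin that pairs with a plexin. Of their 7 genes, 3 rose and 0 fell, beside 15.0% and 13.4% of all genes above a mean of 10. The 3 that rose had lower levels than the other 4. *Sema3g* had the largest fold change of all guidance genes tested that were above the detection limit, with 97.2, 64.5 and 56.4 counts in WT and 175, 217 and 176 in *Rdh10* KO. The *Rdh10* KO mean was 2.61 times the WT mean, with a log2 fold change of 1.41 (SE 0.21, limma adjusted p = 0.000381). The gene lies on chromosome 14 at chr14:31217860-31230352, and its product acts through neuropilin-2. *Sema3b* had 83.9, 89.0 and 96.8 counts in WT and 153, 126 and 161 in *Rdh10* KO (log2 fold change 0.70, SE 0.17, limma adjusted p = 0.00977). *Sema3e*, whose product binds plexin-D1 without a neuropilin, had 121, 137 and 153 in WT and 181, 219.8 and 189 in *Rdh10* KO (log2 fold change 0.52, SE 0.15, limma adjusted p = 0.0242). In all 3 genes the groups were apart.

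*Sema3f*, the most abundant of the class and a neuropilin-2 ligand that repels cranial neural crest, had 956, 933 and 893 in WT and 1025, 784 and 1064 in *Rdh10* KO. Its log2 fold change was 0.034 (SE 0.11, limma adjusted p = 0.875). *Sema3b* lies 72.3 kb from *Sema3f* on chromosome 9. *Sema3a*, the main neuropilin-1 ligand, *Sema3c* and *Sema3d* had log2 fold changes of 0.25, 0.12 and 0.17, all with overlapping groups. The call of *Sema3e* was lost without WT replicate 1 or 2 or *Rdh10* KO replicate 2 (adjusted p up to 0.116), after quantile normalization (limma adjusted p = 0.0668) and with the length and GC trend removed (log2 fold change 0.39, limma adjusted p = 0.0534).

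The 13 other semaphorin genes, nearly all of transmembrane or lipid-anchored proteins, had 5 rises and 0 falls. Of all genes above a mean of 10, 15.0% rose and 13.4% fell. *Sema6b* had 139, 137 and 102 counts in WT and 213, 212 and 226 in *Rdh10* KO (log2 fold change 0.79, SE 0.15, limma adjusted p = 0.00255). *Sema6d*, a ligand of plexin-A1, had 296, 280.4 and 296 in WT and 509.8, 420.3 and 569 in *Rdh10* KO (log2 fold change 0.77, SE 0.12, limma adjusted p = 0.000569). Class 6 semaphorins act as ligands of A-type plexins and can also signal backwards into the cell that carries them. *Sema5a* had 573, 558 and 535 in WT and 874, 980.3 and 745 in *Rdh10* KO (log2 fold change 0.63, SE 0.10, limma adjusted p = 0.000796). *Sema5b* had 618, 548 and 625 in WT and 822, 836 and 872 in *Rdh10* KO (log2 fold change 0.50, SE 0.088, limma adjusted p = 0.00137). Both class 5 genes therefore rose, and their products restrain neurite growth in the retina. *Sema4g* had 305, 287 and 259.5 in WT and 381, 393 and 498 in *Rdh10* KO (log2 fold change 0.57, SE 0.12, limma adjusted p = 0.00557).

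In all 5 of these genes every *Rdh10* KO pool was above every WT pool. *Sema4c*, the most abundant of the 13, had 1306, 1194 and 1206 in WT and 1138, 1185 and 1161 in *Rdh10* KO, a log2 fold change of -0.088 (SE 0.076, limma adjusted p = 0.475). *Sema4a* and *Sema6c* were below WT in every *Rdh10* KO pool (log2 fold changes -0.54 and -0.23, limma adjusted p = 0.175 and 0.145) without passing. *Sema4d*, the ligand of plexin-B1, was above WT in every pool (0.34, 0.0838) and also missed the threshold. *Sema4b*, *Sema4f*, *Sema6a* and *Sema7a* had overlapping groups and log2 fold changes from -0.077 to 0.22. Only the call of *Sema5a* ended with the length and GC trend removed (log2 fold change 0.28, limma adjusted p = 0.0942), and none of the 5 ended when any 1 library was left out. *Sema6c* passed as lower with that trend removed (log2 fold change -0.34, limma adjusted p = 0.0262).

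Plexins are the signalling receptors of the semaphorins. Of the 9 plexin genes, 4 rose and 0 fell, beside 15.0% and 13.4% of all genes above a mean of 10. The 4 were *Plxnd1* and 3 of the 4 A-type genes. *Plxnd1*, the receptor for Sema3e and best known from blood vessels, had 1570.4, 1526 and 1307 counts in WT and 2313, 1908 and 2727 in *Rdh10* KO (log2 fold change 0.65, SE 0.11, limma adjusted p = 0.0013). Its groups were far apart, with a mean 1.58 times that of WT. *Plxna3*, an X-linked gene, had 575, 434 and 534 in WT and 652, 649 and 871 in *Rdh10* KO (log2 fold change 0.49, SE 0.13, limma adjusted p = 0.0167). *Plxna2*, a receptor for class 6 semaphorins, had 1114, 1032 and 1047 in WT and 1542, 1193 and 1319 in *Rdh10* KO (log2 fold change 0.34, SE 0.094, limma adjusted p = 0.0211). *Plxna1* had 3149, 3015 and 2826 in WT and 3820.0, 3186 and 3887 in *Rdh10* KO (log2 fold change 0.27, SE 0.083, limma adjusted p = 0.0323). In each A-type gene that rose the groups were apart, by little in *Plxna1*, where *Rdh10* KO replicate 2 was just above WT replicate 1.

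*Plxnb2*, the most abundant plexin gene, had 4787, 4479 and 4043 in WT and 4843, 4789 and 5200.3 in *Rdh10* KO (log2 fold change 0.16, SE 0.074, limma adjusted p = 0.163). *Plxnc1*, the receptor for Sema7a, was above WT in every *Rdh10* KO pool without passing (0.36, limma adjusted p = 0.0541). *Plxna4* and *Plxnb1* had log2 fold changes of 0.18 and -0.025 with overlapping groups, and *Plxnb3* had at most 3 reads in every library and is given no fold change. The 3 A-type calls depended on single libraries. Their adjusted p reached 0.141 for *Plxna1* (lost without any 1 library other than *Rdh10* KO replicate 2), 0.109 for *Plxna2* (without any WT replicate or *Rdh10* KO replicate 1) and 0.117 for *Plxna3* (without WT replicate 2 or 3 or *Rdh10* KO replicate 3). They were also lost with the length and GC trend removed, at log2 fold changes of 0.086, 0.00089 and 0.33 (limma adjusted p = 0.36, 0.997 and 0.0521). *Plxnd1* kept its call in each of these fits. With the length and GC trend removed, *Plxnb1* passed as lower (log2 fold change -0.23, limma adjusted p = 0.0377).

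Neuropilins are the binding partners of plexins for class 3 semaphorins and also bind vascular growth factors. *Nrp2*, at chr1:62703285-62818695 on chromosome 1, had 1209, 1309.8 and 1031 counts in WT and 1917, 1799 and 1964 in *Rdh10* KO. Its log2 fold change of 0.68 (SE 0.090) had the lowest adjusted p of all guidance genes (0.000186, limma). *Nrp1* had 528, 511 and 431 in WT and 674, 555 and 600.0 in *Rdh10* KO, groups that did not overlap, but it did not pass (log2 fold change 0.32, SE 0.11, limma adjusted p = 0.0563). Within each library, the log2 ratio of *Nrp2* to *Nrp1* was 1.27 ± 0.082 in WT and 1.64 ± 0.11 in *Rdh10* KO (SD, n = 3), given as a description. The *Nrp2* call held without any 1 library and with the length and GC trend removed (log2 fold change 0.42, limma adjusted p = 0.00134).

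Slits are secreted repellents that act through Robo receptors and keep retinal axons in their path. *Slit2* and *Slit3* rose, as did 15.0% of all genes above a mean of 10. *Slit2* had 1668, 1379.9 and 1474 counts in WT and 1814, 1879 and 2021 in *Rdh10* KO (log2 fold change 0.34, SE 0.084, limma adjusted p = 0.0107). *Slit3* had 413, 406 and 284 in WT and 559, 515 and 666 in *Rdh10* KO (log2 fold change 0.67, SE 0.14, limma adjusted p = 0.00493). *Slit2*, with 25433 bp of exon, is the longest of the guidance genes, and with the length and GC trend removed its fold change turned negative (-0.049, limma adjusted p = 0.674), while *Slit3* stayed at 0.57 (0.00367). The *Slit2* call was also lost without WT replicate 2 or 3 (adjusted p up to 0.0865).

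Per length the 3 Slit genes were close in WT, at 3.33 ± 0.40 FPKM for *Slit1*, 3.10 ± 0.61 for *Slit3* and 3.03 ± 0.30 for *Slit2* (SD, n = 3). *Slit1* had 437, 349 and 369.5 counts in WT and 799.8, 332 and 781 in *Rdh10* KO. *Rdh10* KO replicates 1 and 3 were thus far above WT while replicate 2 was below every WT value, and the gene did not pass (log2 fold change 0.63, SE 0.25, limma adjusted p = 0.0971). *Ntn1*, which encodes netrin-1, had the same split among its *Rdh10* KO libraries, with 1767, 1647 and 1861 in WT and 2536, 1521 and 2647 in *Rdh10* KO (log2 fold change 0.31, SE 0.16, limma adjusted p = 0.205). Without *Rdh10* KO replicate 2, the log2 fold changes were 1.04 for *Slit1* and 0.56 for *Ntn1*, with limma adjusted p of 0.000557 and 0.00156. That library was chosen after its values were seen, and what sets it apart for these genes was not tested.

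Of the 3 Robo genes, *Robo1* and *Robo2* rose, as did 15.0% of all genes above a mean of 10. *Robo1* had 1314, 1262 and 1117 counts in WT and 1704, 1822 and 1980.1 in *Rdh10* KO (log2 fold change 0.58, SE 0.085, limma adjusted p = 0.000406). *Robo2*, the main Slit receptor of retinal ganglion cells, had 518, 515 and 452 in WT and 671, 767 and 857 in *Rdh10* KO (log2 fold change 0.62, SE 0.11, limma adjusted p = 0.00107). The 2 genes are neighbours on chromosome 16, at chr16:72308306-73046095 and chr16:73891839-74411825, on opposite strands and 846 kb apart, and each had well separated groups. Both calls held without any 1 library, and with the length and GC trend removed the log2 fold changes were 0.27 and 0.36 (limma adjusted p = 0.0129 and 0.0199). *Robo3*, a receptor of commissural axons, had 39.9, 37.8 and 24.4 in WT and 26.5, 10.7 and 47.1 in *Rdh10* KO, too variable a gene for a direction (limma adjusted p = 0.531).

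Of the netrin genes, 0 passed the limma test, 1 was lower at an unadjusted p under 0.05 (*Ntn4*), edgeR called 1 (*Ntn1*) and DESeq2 called 0. Of the 7 genes grouped as their receptors, counting *Unc5cl*, 3 rose and 0 fell, beside 15.0% and 13.4% of all genes above a mean of 10. *Ntn4*, a netrin of basement membranes, was lower in every *Rdh10* KO pool, with 149, 108 and 116 in WT and 106, 84.3 and 89.4 in *Rdh10* KO (log2 fold change -0.41, SE 0.19, limma adjusted p = 0.151). The 2 *Ntn5* entries had at most 1 read in any library and were not tested. *Dcc*, which encodes the receptor through which netrin-1 attracts axons, had 115, 110.2 and 113 counts in WT and 258, 204 and 360.0 in *Rdh10* KO. The 3 WT pools were close together and the *Rdh10* KO pools spread wide above them, with a mean 2.44 times that of WT (log2 fold change 1.24, SE 0.18, limma adjusted p = 0.000389). *Neo1*, whose product neogenin binds netrins and repulsive guidance molecules, had 2299.8, 2354 and 2255 in WT and 2847, 3059 and 3272 in *Rdh10* KO (log2 fold change 0.41, SE 0.071, limma adjusted p = 0.00132). *Unc5c*, a receptor for repulsion by netrin-1, had 596, 534 and 457 in WT and 880.0, 969 and 724 in *Rdh10* KO (log2 fold change 0.69, SE 0.12, limma adjusted p = 0.00131). The groups of all 3 genes were apart, and all 3 calls held without any 1 library and with the length and GC trend removed.

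*Dcc* was nonetheless a low gene, at 0.437 FPKM in WT and 1.07 FPKM in *Rdh10* KO, beside 13.5 and 18 FPKM for *Neo1*. The log2 ratio of *Dcc* to *Neo1* in each library was -4.35 ± 0.054 in WT and -3.52 ± 0.37 in *Rdh10* KO (SD, n = 3), given as a description. *Unc5b*, known from blood vessels, was above WT in every *Rdh10* KO pool (0.23, limma adjusted p = 0.164), and *Unc5a* and *Unc5d* had overlapping groups (log2 fold changes 0.16 and 0.26). *Unc5cl* had 0 to 9.60 normalized counts, too few for a fold change.

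**Figure D4:**
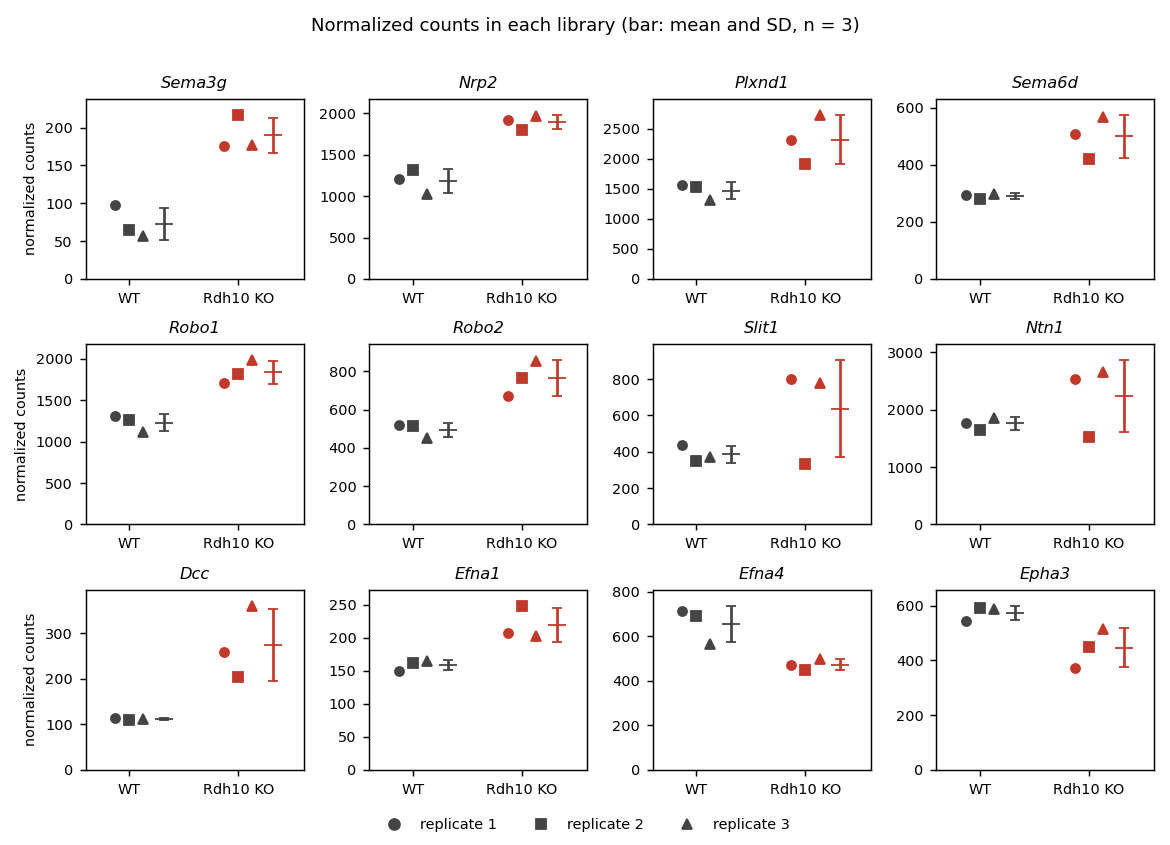
Normalized counts of 12 guidance genes in each WT (grey) and *Rdh10* KO (red) library, with the mean and SD of 3 libraries beside the points and symbols for the replicate number. *Sema3g* and *Dcc* have the largest separation of groups, *Efna4* and *Epha3* are lower in *Rdh10* KO, and *Slit1* and *Ntn1* have *Rdh10* KO replicate 2 below the WT values.

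Each *Rdh10* KO library was the highest of its group for some of the genes that rose. Among the 24 genes that rose, *Rdh10* KO replicate 3 was the highest of its group in 15, replicate 2 in 7 and replicate 1 in 2. Of these 24 genes, 15 passed in every fit that left out 1 library, and 23 had a positive fold change under every one of the 18 other settings tried, the exception being *Slit2*. Of the 3 genes that fell, 0 passed in every fit that left out 1 library, though all 3 stayed negative in each.

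Genes that work downstream of or beside these ligands and receptors were described from a list of 53, chosen with earlier results known. Of these, 15 rose and 2 fell, with a median log2 fold change of 0.13, beside 10.3% and 9.12% of all genes tested (15.0% and 13.4% of those above a mean of 10) and a median of 0.0036. The counts for the 4 pathways below rest on 9 to 19 genes each. For Slit and Robo signalling, 5 of 9 rose, namely *Srgap1*, *Srgap2* and *Srgap3*, which encode GTPase-activating proteins that bind Robo, the vascular receptor gene *Robo4*, and *Flrt3*, a Robo and Unc5 partner. *Srgap2* had 1468, 1484 and 1397 counts in WT and 2218, 1953 and 2105 in *Rdh10* KO (log2 fold change 0.53, limma adjusted p = 0.000291), and *Robo4* had 93.1, 84.6 and 78.0 and 168, 141 and 178 (0.92, 0.00168). For semaphorin and plexin signalling, 6 of 19 rose and 1 fell. The 6 were the cell adhesion gene *Nrcam*, the small GTPase gene *Rras*, the exchange factor genes *Arhgef11*, *Arhgef12* and *Farp1*, and *Mical3*, of a family of actin-oxidising enzymes. *Nrcam*, which acts with neuropilins, had 581, 477 and 541 in WT and 879, 869 and 1280.1 in *Rdh10* KO (log2 fold change 0.90, limma adjusted p = 0.000429), and *Rras* had 252, 211 and 150.4 and 367, 322 and 484 (0.95, 0.00263). *Dpysl4*, of the collapsin response mediator family that relays semaphorin signals, fell from 947, 1028 and 893 to 677, 612 and 698 (log2 fold change -0.53, limma adjusted p = 0.00106). For netrin signalling, *Trio* and *Dock1*, which encode activators of Rac downstream of Dcc, rose by 0.51 and 0.44 on the log2 scale and *Pitpna*, a Dcc-binding lipid transfer protein gene, fell (log2 fold change -0.32), out of 14 genes. For Eph and ephrin signalling, *Tiam1* and *Grip1* rose by 0.44 and 0.51 on the log2 scale, out of 11 genes with a median of -0.0077. For netrin and for Eph and ephrin signalling, the share that rose was near the 15.0% of all genes above a mean of 10. With the length and GC trend removed, 10 of the 53 rose and 7 fell, against 8.63% and 13.0% of all genes. The calls of *Mical3*, *Arhgef11*, *Arhgef12*, *Srgap3* and *Trio* then ended. Without WT replicate 2, 9 of the 53 rose, against 6.55% of all genes.

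Of the markers of other cell types, those of endothelium passed as higher most often. The marker lists, too, were chosen with earlier results of these data known. Over all genes tested 10.3% rose and 9.12% fell, and above a mean of 10 the shares were 15.0% and 13.4%. Counts of 1 gene in the lists below were near these shares. Of 10 endothelial markers, 5 rose (*Pecam1*, *Cdh5*, *Kdr*, *Tie1* and *Sox17*) and 0 fell, and their summed level was 56.9 to 63.7 FPKM in the WT libraries and 64.0 to 74.7 in the *Rdh10* KO libraries, or 1.14 times the WT mean. The 5 that rose had means of 2.1 (*Sox17*), 1.75 (*Pecam1*), 1.63 (*Kdr*), 1.3 (*Cdh5*) and 1.29 (*Tie1*) times those of WT. The other 5 did not pass, at 1.14 (*Esam*), 1.08 (*Tek*), 1.06 (*Emcn*), 1.01 (*Egfl7*) and 0.80 (*Cldn5*) times WT. Exon lengths were 4203 to 9030 bp for the 5 that rose and 1416 to 5409 bp for the other 5. Some of the guidance and partner genes also expressed in vessels rose and others did not pass. Among those that rose, the means were 2.61 times WT for *Sema3g*, 1.9 for *Robo4*, 1.6 for *Nrp2*, 1.58 for *Plxnd1* and 1.38 for *Efna1*. Those that did not pass had log2 fold changes of 0.32 (*Nrp1*), 0.23 (*Unc5b*), 0.18 (*Efnb2*) and -0.032 (*Ephb4*). Of 8 forebrain markers, 1 rose (*Dlx2*) and 0 fell, and their sums overlapped, at 136 to 149.7 FPKM in WT and 128 to 166 in *Rdh10* KO. Of 10 postmitotic neuron markers, 0 rose and 1 fell (*Stmn2*), with sums of 164 to 218 FPKM in WT and 145 to 206 in *Rdh10* KO. Among optic vesicle markers, *Rax* and *Six3* rose and *Lhx2* fell, out of 8. Among 7 surface ectoderm markers, *Cdh1* rose, with sums of 126 to 139 FPKM in WT and 123 to 151 in *Rdh10* KO, and among 6 heart markers *Actc1* rose, with sums of 3.26 to 4.45 and 3.54 to 9.16 FPKM. None of these markers was at 0 in all libraries, and the part of cell type shares in the changes of the guidance genes was not tested.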

How the data were processed

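RNA-seq was analysed for 6 E10 libraries, 3 a group, with groups taken from the sample titles. According to the study's methods, the authors made strand-specific libraries from poly(A) RNA, aligned the reads to mm10 with TopHat, calculated abundance by Expectation–Maximization, normalized to FPKM and tested with edgeR. The deposited signal of each gene and library is not per length, however. It equals whole reads divided by 1 median-of-ratios size factor per library (0.850 to 1.40), and dividing by the value of 1 read gave whole numbers for 100% of values within 0.006 normalized counts. The tests were chosen without assuming a unit. Of 26438 lines, 1 names no gene and was left out.

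Log2(value + 0.1) of genes with a mean above 0.5 was tested with limma 3.58.1 (R 4.3.3, intensity trend, no covariate), with Benjamini–Hochberg adjustment over 22921 genes. Fold changes are on this scale. For genes with few reads they depend on the added 0.1 and, where a library is at 0, can overstate the ratio of the group means. "Rose" and "fell" mean an adjusted p under 0.05. In a single gene 3 libraries against 3 cannot give an exact permutation p under 0.1. Values are given per library for each guidance gene that passed and for the highest gene, per length, of each family, and partner genes are named where they passed. *Nrp1*, *Robo3*, *Efna3* and *Ntn4* were added after their values were seen. Ratios between genes are shown for some of 9 pairs computed. Groups overlapped for *Unc5c* over *Unc5b* and *Slit3* over *Slit2*, and the lowest adjusted p of any pair was 0.129 (exact permutation). A ratio of a gene that rose to one that fell differs by construction. Guidance genes, partner genes and marker lists were chosen with earlier results of these data known. Positions, exon lengths and GC content are from GENCODE mouse release 21 (GRCm38), and promoters from RefSeq. One *Ntn5* identifier was not in that release. Exons of 17 guidance genes overlap those of another gene. The list of craniofacial mesenchyme markers is not reported here.

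Alternatives were a pseudocount of 1 or of 0.01, 3 other filters (none, a mean above 10, and above 0.5 FPKM), TMM and quantile scaling, no intensity trend, a replicate block, edgeR 4.0.16 and DESeq2 1.42.0 on recovered reads, and each library left out. Removal of the length and GC trend (splines with 4 degrees of freedom) was added after seeing the data. Replicates were not copies of each other. The chi-square over its degrees of freedom was 2.84 to 6.03 between WT libraries and 13.6 to 19.1 between *Rdh10* KO libraries, where sampling noise alone gives about 1. Python 3.11.15 was used for tables and plots, and the fits were tested on simulated data.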

Additional observations from a re-analysis of the deposited data

How the results depend on the processing

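The numbers of guidance genes that rose and fell, 24 and 3, were 22 to 34 and 1 to 4 under the other pseudocounts, filters, scalings and count tools. Over all genes, 9.13% to 17.0% rose and 8.02% to 16.6% fell in those analyses. Of the 24 that rose, 16 passed in all 11 analyses of the 6 libraries that kept the intensity trend. Without the trend, 0 rose and 0 fell, 0 passed the log2 limit, and 1 partner gene rose and 0 fell, while over all genes 448 rose and 197 fell. With a pseudocount of 0.01, 1 guidance gene fell. With the length and GC trend removed, 18 rose and 5 fell, and of the partner genes 10 rose and 7 fell. Over all genes, 8.63% rose and 13.0% fell in that fit. When 1 library was left out, 16 to 26 rose, 0 to 2 fell and 2 to 5 rose past the log2 limit (2 with all libraries, 4 without WT replicate 1 or 2, 5 without *Rdh10* KO replicate 2), and 9 to 17 partner genes rose. In those fits 6.55% to 9.42% of all genes rose and 4.36% to 9.11% fell. The cause of these differences between fits was not tested, except that these fits have fewer samples. Replicate numbers gave no sign of pairing the samples, with correlations of -0.026, -0.035 and -0.074 between libraries of the same number. With 3 libraries a group such correlations constrain each other, so they cannot exclude a pairing. With a replicate block, 21 guidance genes rose and 2 fell, with the calls of *Efna1* (limma adjusted p = 0.0664), *Sema3e* (0.0528), *Plxna1* (0.0748) and *Epha3* (0.0535) lost. Over all genes, 7.48% rose and 6.05% fell with that block.

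Among single genes, 24 values changed sign, all but 2 of them of genes that had not passed the test. The exceptions, *Slit2* (log2 fold change -0.049) and *Mical3* (-0.098), changed sign with the length and GC trend removed, as did *Epha5* (-0.030), *Plxna4* (-0.12) and *Sema3f* (-0.027). *Epha1* (-0.059) and *Sema7a* (-0.090) were negative after quantile normalization, and *Sema7a* was at -0.0011 in edgeR and -0.0081 in DESeq2. Leaving out 1 library gave log2 fold changes of -0.013 to 0.10 for *Efnb1*, -0.0071 to 0.093 for *Epha1*, -0.016 to 0.47 for *Epha5*, -2.13 to 0.39 for *Epha6*, -0.097 to 0.037 for *Ephb4*, -0.062 to 0.013 for *Plxnb1*, -0.98 to 0.084 for *Robo3*, -0.048 to 0.17 for *Sema3f*, -0.19 to 0.071 for *Sema4f* and -0.17 to 0.10 for *Sema7a*. Depth limits *Epha6*, *Plxnb3*, *Unc5cl* and *Ntn5*, which were near the value of 3 reads.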
